A study of Mus musculus with 115 samples.

Results

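The zinc finger genes Zfp738, Zfp87, Zfp874a, Zfp429, Zfp748, Zfp708, Zfp455, Zfp458, Zfp459 and Zfp595 lie in one stretch of mouse chromosome 13, and their RNA levels were followed through prostates of TRAMP mice. They are a named list of neighbouring zinc finger genes, 10 of the 45699 genes in the table, chosen with earlier results of these data known. Other Zfp genes of the stretch are not in the list. Among the study's candidates, from RNA-seq of this cross, were Zfp738, Zfp87, Zfp874a, Zfp429 and, under another gene ID, Zfp708. The study listed those for a cis-eQTL (a nearby SNP linked to a gene's level) and a correlation with prostate tumor burden. The 10 members span 618 kb, from chr13:67069399 to chr13:67687071 in GRCm38, and all but Zfp455 are on the minus strand. RNA of (TRAMP x WSB) F2 males was sequenced from prostate tumor tissue, or from the ventral prostate where a tumor was small. All animals carried the transgene, so the labels gave 1 group and no control. The males came from C57BL/6J TRAMP females crossed with WSB/EiJ males, followed by an intercross of the F1. In TRAMP mice a minimal probasin promoter, active in androgen-responsive prostate epithelium, drives the SV40 T antigens, and the libraries were made from bulk tissue in which fewer cells of a type and less RNA per cell cannot be told apart. Values are TPM, the relative abundance of a gene's transcripts, scaled to the same total in every library and corrected for length, so levels can be set side by side between genes.

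Genes of this kind encode KRAB zinc finger proteins, DNA-binding repressors in which a tandem array of zinc fingers reads the DNA and the KRAB domain recruits the co-repressor Trim28 and the histone methyltransferase Setdb1. They arose by repeated tandem duplication, they turn over quickly between lineages, and many silence transposable elements. The chromosome 13 group holds the Regulator of sex-limitation genes Rsl1 and Rsl2 (Rsl2 is Zfp429), which were named for repressing male-typical genes in the liver of female mice, and several neighbours carry Rsl candidate names.

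Along the chromosome in GRCm38, positions from GENCODE M21, Zfp708 (ENSMUSG00000058883, chr13:67069399-67097976) comes first, followed by Zfp455 (ENSMUSG00000051037, chr13:67194506-67209298), Zfp458 (ENSMUSG00000055480, chr13:67254918-67278466) and Zfp595 (ENSMUSG00000057842, chr13:67312998-67332570). A denser group holds Zfp429 (ENSMUSG00000078994, chr13:67387905-67399819), Zfp459 (ENSMUSG00000055560, chr13:67405709-67421418) and Zfp874a (ENSMUSG00000069206, chr13:67424549-67451624). Zfp87 (ENSMUSG00000097333, chr13:67515781-67526177) and Zfp748 (ENSMUSG00000095432, chr13:67538641-67553830) lie nearer to Zfp738, and other Zfp genes lie among them.

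What the members share in sequence was looked for in windows of 250 bases before to 50 after each gene's RefSeq start. The windows came from GRCm38.p6, the C57BL/6J reference. A window was found for 9 members, all but Zfp87, with 2 windows for Zfp708. The stretch of 13 letters of the Zfp738 window that most members held, with N where those members differed, was TGGGANNTGTAGT. Searched on both strands, it was present for 8 of the 9 members, Zfp459 being the exception, and in 8 of their 10 windows. For Zfp708 only 1 of the 2 windows held it. The string was built from these windows, so its presence in members follows from that choice and is no test. The same string was in 1.47% of the 32851 windows of all genes, in 12 of 13 other Zfp genes of the region and in 37 of 314 Zfp genes elsewhere. The longer string GACTTNTGGGANNTGTAGTC, which contains the first, was derived in the same way over 20 letters. It was found in 21 of all windows, each of them on chromosome 13. Of those, 8 belonged to members, which again follows from how it was built. Letters of this kind occur in the known binding site of the transcription factor Zfp143. The 8 windows of 30 bases around the string are given here on the strand of each gene, with the 13 letters in capitals.
Zfp708, chr13:67081577-67081606, minus strand: tagacttcTGGGAAATGTAGTctctcttag
Zfp455, chr13:67194441-67194470, plus strand: aagacttcTGGGATATGTAGTccaagcaac
Zfp458, chr13:67269152-67269181, minus strand: ctgacttgTGGGAAATGTAGTcccaacaat
Zfp595, chr13:67332591-67332620, minus strand: ctgacttgTGGGAAATGTAGTccctaccac
Zfp429, chr13:67399818-67399847, minus strand: cagacttcTGGGAGATGTAGTccgcaccgc
Zfp874a, chr13:67451637-67451666, minus strand: cagacttgTGGGAAATGTAGTctgcagcac
Zfp748, chr13:67553158-67553187, minus strand: cagacttgTGGGAAGTGTAGTcttccgttg
Zfp738, chr13:67683548-67683577, minus strand: ctgacttgTGGGAAGTGTAGTcccgtccct

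The string ended between 14 and 166 bases before the RefSeq start, and within 14 to 59 bases of it in all but Zfp458. The string lay inside the GENCODE M21 span of Zfp708, Zfp458, Zfp748 and Zfp738, so for them the RefSeq start is not the GENCODE start. The flanking letters differed between members, as the stretches before the RefSeq starts of Zfp738 and Zfp429 show. These stretches are printed because Zfp429 was the member with the highest r with Zfp738. The stretch printed for Zfp738 lies inside its GENCODE M21 span too. Bases that GENCODE M21 places in an exon were left out, and the 13 letters are again in capitals.
Zfp738, chr13:67683552-67683762, minus strand: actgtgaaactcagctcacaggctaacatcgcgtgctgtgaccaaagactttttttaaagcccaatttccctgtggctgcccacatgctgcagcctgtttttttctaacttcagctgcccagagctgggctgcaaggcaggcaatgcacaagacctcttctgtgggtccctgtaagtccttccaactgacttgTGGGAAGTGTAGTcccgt
Zfp429, chr13:67399820-67400017, minus strand: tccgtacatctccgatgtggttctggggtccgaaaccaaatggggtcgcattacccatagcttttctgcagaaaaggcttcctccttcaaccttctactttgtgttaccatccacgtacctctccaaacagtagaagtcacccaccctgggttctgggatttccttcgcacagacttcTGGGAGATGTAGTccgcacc
The string is a description of the reference sequence. No binding was measured in these libraries.

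The libraries themselves fell into 2 parts along the first principal component of 14068 genes outside chromosome 13, which held 48.5% of the variance. The larger part held 79 libraries and the smaller part 36. The smaller part had more RNA of neuroendocrine and cycling cells. The summed TPM of the neuroendocrine markers ranged from 38.1 to 715 in the 36 libraries and from 0.11 to 20.4 in the 79, and that of the proliferation markers from 250 to 851 and from 3.75 to 162. Prostate luminal markers were present in both, at a median sum of 67.1 TPM in the smaller and 1040 TPM in the larger part. The parts were defined from these data and are not groups of the study, so the members were described in each and their levels were not tested between the parts. The 20 most abundant genes took from 48.9% to 81.8% of the TPM of a library.

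All 10 members were expressed at low to moderate levels, and Zfp87 stood above the rest. Zfp87, a KRAB zinc finger gene also known as Mzf22, measured 10.5 ± 3.26 TPM (mean ± SD over all 79 + 36 libraries) and ranged from 3.64 to 21.3 TPM. It was the highest member in all but 4 libraries, in which Zfp738 was highest. The summed TPM of the 10 members ranged from 11.7 to 45 with a median of 24.6, of which Zfp87 made up a median of 41.3%.

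Zfp748 followed at 4.02 ± 1.52 TPM. Zfp738 measured 3.07 ± 1.88 TPM and Zfp874a 2.56 ± 1.26 TPM. Zfp748 never fell under 1.68 TPM, whereas Zfp738 fell to 0.16 TPM and Zfp874a to 0.65 TPM. Zfp595 measured 1.4 ± 0.646 TPM and Zfp458 1.11 ± 0.603 TPM. The remaining members were under 1 TPM on average, with 0.76 ± 0.333 TPM for Zfp455, 0.621 ± 0.469 TPM for Zfp429, 0.562 ± 0.403 TPM for Zfp459 and a median of 0.43 TPM for Zfp708, which was listed at 0 in 6 libraries. The study's own tables give the name Zfp708 to ENSMUSG00000100235, which is Gm28557 in GENCODE M21. A member counted as detected where 50% of the libraries or more held 1 TPM of it, and 5 did, namely Zfp87, Zfp748, Zfp738, Zfp874a and Zfp595.

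Neighbours in this order were compared on log2(TPM + 1) within libraries, with both parts pooled. The test was a sign-flip permutation test of the mean difference, two-sided and adjusted over the 9 comparisons. The order itself came from these libraries. Zfp87 exceeded Zfp748 by 1.19 ± 0.51 (SD) and was the higher in all but 1 library, with an adjusted p of 2.25e-05 from a permutation p of 1e-05, the smallest that 100000 resamples can give. The pooled difference did not pass for Zfp738 and Zfp874a (adjusted p = 0.163), with Zfp738 higher in 59 libraries. Nor did it for Zfp429 and Zfp459 (adjusted p = 0.179) or for Zfp459 and Zfp708 (adjusted p = 0.162). For the first and the last of these pairs this does not show equal levels, since their medians changed order between the parts. Zfp738 and Zfp874a had 2.57 and 3.01 TPM in the larger and 4.06 and 1.54 TPM in the smaller part. Zfp459 and Zfp708 had 0.6 and 0.34 TPM in the larger and 0.09 and 0.77 TPM in the smaller part. The other 5 steps passed, the widest of them between Zfp874a and Zfp595, where the difference was 0.53 ± 0.34 and Zfp874a was higher in all but 6 libraries. The medians of Zfp595 and Zfp458, a step that passed, also changed order between the parts.

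**Figure D1:**
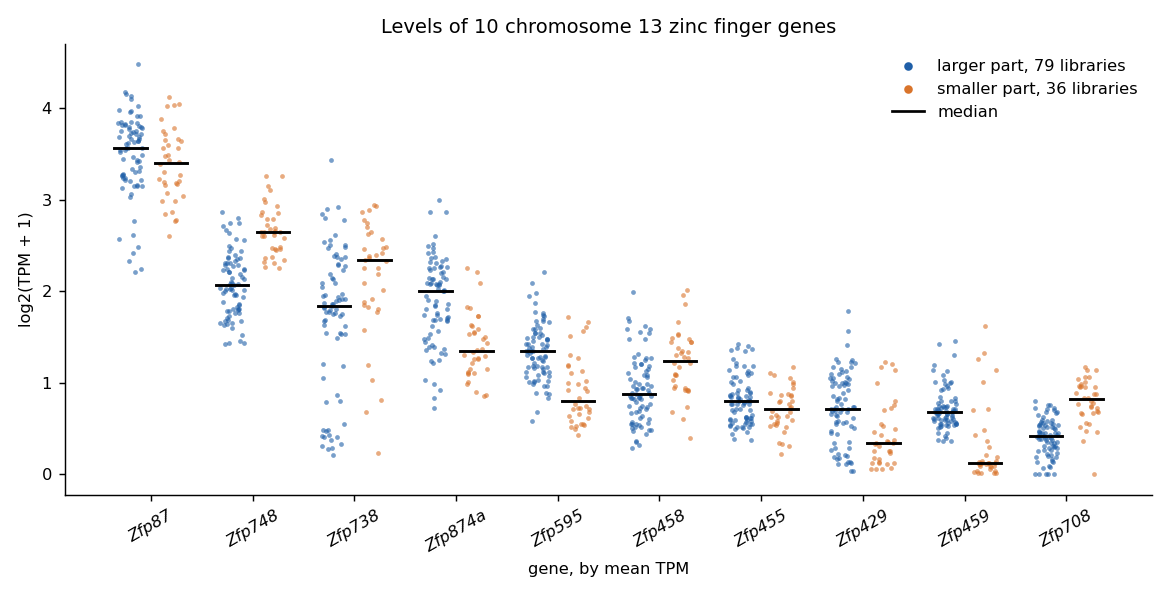
Level of each member in log2(TPM + 1) on the vertical axis, 1 point per library, with the 79 libraries of the larger part in blue, the 36 of the smaller part in orange and a black bar at each median. Zfp87 has the highest median in both parts, Zfp738 has a separate group of low points in the larger part, and most Zfp459 points of the smaller part lie near 0.

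Set side by side with no test, some members had the higher median in the larger part and some in the smaller. Zfp459 had a median of 0.6 TPM in the 79 libraries, where it never fell under 0.29 TPM, and of 0.09 TPM in the 36, where it ranged from 0.01 to 2.08 TPM. Zfp429 had medians of 0.64 and 0.27 TPM, Zfp595 of 1.55 and 0.75 TPM, and Zfp874a of 3.01 and 1.54 TPM in the larger and smaller part. These 4 members thus had the lower median in the smaller part, with ranges that overlapped in each case.

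For Zfp748 the order was the other way, with medians of 3.21 TPM in the larger and 5.29 TPM in the smaller part. Zfp738 had medians of 2.57 and 4.06 TPM, Zfp458 of 0.84 and 1.37 TPM and Zfp708 of 0.34 and 0.77 TPM. Gm28557, which carries the name Zfp708 in the study, had medians of 1.82 and 0.565 TPM, the opposite order. Zfp87 had medians of 10.9 and 9.57 TPM and Zfp455 of 0.75 and 0.64 TPM. The members therefore did not share 1 direction, and their summed TPM had medians of 24.9 and 23.2 in the larger and smaller part.

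The level of Zfp738 (ENSMUSG00000048280, chr13:67658685-67687071, minus strand) separated into 2 sets of libraries. Within the larger part, 14 libraries held between 0.16 and 0.47 TPM of Zfp738 with a median of 0.33, and 65 held between 0.73 and 9.86 TPM with a median of 2.77. No library fell between 0.47 and 0.73 TPM. A mixture of 2 normal distributions on log2(TPM + 1) lowered the BIC by 25.2 against 1, with an Ashman D (the distance between the means in units of their spread) of 4.25, and 3 distributions lowered it no further than 2 did (a fall of -5.4). The rule for separate parts was a fall of more than 10, a D of more than 2 and at least 6 libraries in each part. The border between the sets depended on the scale, since 17 libraries were in the lower set with a pseudocount of 0.1, with median-of-ratios scaling or without the 20 largest genes. These 17 were the 14 and the 3 libraries at 0.73, 0.74 and 0.82 TPM, just above the border.

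In the smaller part, 5 libraries between 0.18 and 1.29 TPM lay under 31 libraries between 1.99 and 6.72 TPM. With a fall of the BIC of 1.96 and under 6 libraries in the lower set, this did not meet the rule. None of the other 9 members separated within the larger part. Zfp459 separated in the smaller part, into 25 libraries between 0.01 and 0.16 TPM and 11 between 0.23 and 2.08 TPM, with a fall of the BIC of 49 and a D of 2.18.

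**Figure D2:**
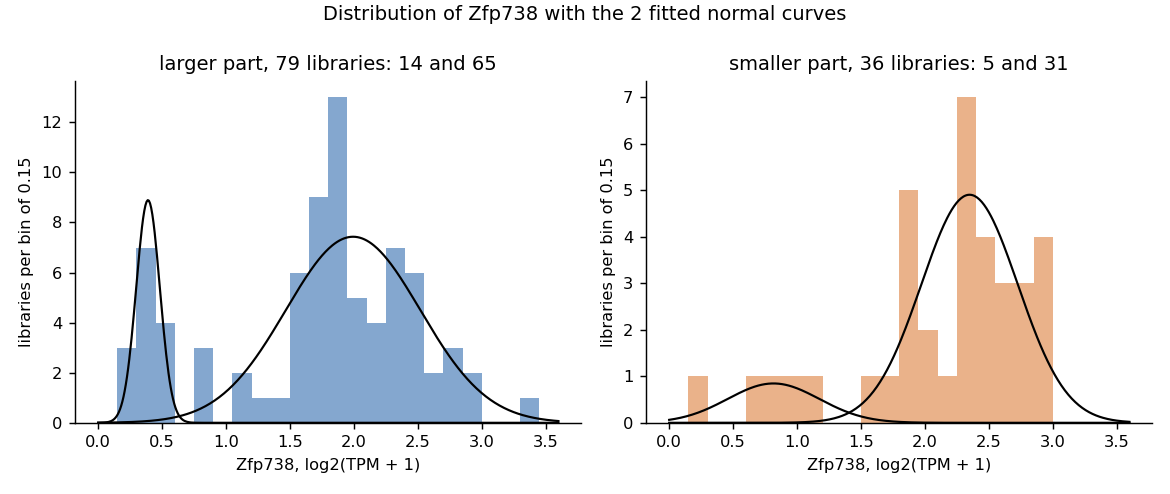
Number of libraries (vertical axis) by Zfp738 level in log2(TPM + 1) (horizontal axis, bins of 0.15), in the larger part on the left and the smaller part on the right, with the 2 fitted normal curves in black. The 14 low libraries of the larger part form a narrow peak apart from the other 65, and the smaller part has a thin tail of 5 low libraries.

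A gene that overlaps Zfp738 followed the same 2 sets. Gm26587, annotated as a processed pseudogene on the opposite strand with all of its 989 exon bases inside Zfp738 exons, was listed at 0 in all 14 low libraries and in 3 of the 65, in which its median was 0.66 TPM. The library kit does not mark strand, so the reads of the 2 genes cannot be told apart.

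Of the other members, Zfp429 came closest to such a division. Zfp429 (Rsl2) held 0.03 to 0.27 TPM, median 0.115, in the 14 Zfp738-low libraries, and 0.12 to 2.44 TPM, median 0.77, in the 65. Of the 65, 3 fell within the low range, and they were the 3 libraries just above the Zfp738 border, which also were those of the 65 with Gm26587 at 0. Zfp874a held 0.79 to 2.35 TPM against 0.65 to 7.02 TPM, and 15 of the 65 fell within the low range. Zfp87 had the higher median in the Zfp738-low libraries, 12.9 TPM (7.19 to 17.1) against 10.3 TPM (3.64 to 21.3), and 56 of the 65 lay within the low range. For the remaining 6 members between 34 and 58 of the 65 libraries lay within the range of the 14, so the low set of Zfp738 libraries was not a set in which the cluster was low.

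The relation of each member to Zfp738 was tested over the 79 libraries with limma on log2(TPM + 1), with p-values adjusted over all 23164 genes tested by the Benjamini-Hochberg method. Of the 9 other members 5 were called, all with a positive slope, beside 14.6% of all genes tested (14.5% with a positive slope). The study listed Zfp429, Zfp874a and Zfp87 with a cis-eQTL at the SNP of Zfp738. In its list the SNP effect had the same sign for Zfp738, Zfp429 and Zfp874a and the opposite sign for Zfp87. Gm26587, 9430065F17Rik and Gm28557, the study's Zfp708, were listed at that SNP too. The count may therefore not be independent of how the members were chosen. Zfp429 rose by 0.45 ± 0.02 (slope ± SE, adjusted p = 3.34e-26) per unit of Zfp738 and Zfp874a by 0.41 ± 0.05 (adjusted p = 1.11e-07). Zfp595 rose by 0.18 ± 0.04 and Zfp708 by 0.12 ± 0.03, both with an adjusted p of 0.00635, and Zfp748 by 0.16 ± 0.05 (adjusted p = 0.0228). Zfp459 (slope 0.09 ± 0.03, adjusted p = 0.0532), Zfp455 (adjusted p = 0.107) and Zfp458 (adjusted p = 0.317) were not called. Zfp87 had the only negative slope of the 9, -0.18 ± 0.06, and missed the threshold at an adjusted p of 0.0504.

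Because Zfp738 itself fell into 2 sets, correlations were taken within each. In the 65 Zfp738-high libraries, Zfp429 followed Zfp738 with r = 0.828 and rho = 0.781 (permutation p = 1e-05 for each, the smallest that 100000 resamples can give), and r was 0.785 after leaving out the 2 libraries with the most distant Zfp738 values. Zfp874a had r = 0.521 and rho = 0.646 (permutation p = 1e-05 for each) and 0.487 after leaving them out. For Zfp595, Zfp748, Zfp708, Zfp459 and Zfp455 r was 0.485, 0.419, 0.416, 0.398 and 0.364 and rho 0.51, 0.417, 0.483, 0.513 and 0.366 (permutation p of r 0.00327 or less), and r lay between 0.32 and 0.439 after the same removal. For Zfp458 it was 0.23 (permutation p = 0.0657) and for Zfp87 -0.0969 (permutation p = 0.442). In these 65 libraries limma called 7 of the 9 members, all with a positive slope, beside 24% of all genes (23.9% with a positive slope). The 3 libraries just above the border decided these shares. In the 62 libraries without them, an alternative chosen after seeing the data, 8 of the 9 members were called, all with a positive slope, beside 55.6% of all genes (55.4% with a positive slope). Zfp429 had r = 0.78 and rho = 0.747 there (permutation p = 1e-05 for each), and r = 0.719 after the same removal. Zfp595 had r = 0.636, Zfp748 r = 0.563, Zfp708 r = 0.528 and Zfp874a r = 0.49, and Zfp87, which was not called, r = 0.00261.

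Inside the 14 Zfp738-low libraries Zfp429 had r = 0.728 (permutation p = 0.0031) and rho = 0.718 (permutation p = 0.00557), and r = 0.503 once the 2 most distant libraries were left out. Zfp874a had r = 0.347 there (permutation p = 0.226) and 0.606 once they were left out, so its value rested on those 2 libraries. For Zfp459, Zfp455 and Zfp595 r was 0.571, 0.547 and 0.522 (permutation p = 0.0323, 0.0452 and 0.0546), and these p-values were not adjusted. With the 3 libraries above the border added, Zfp429 had r = 0.519 (permutation p = 0.0321) and rho = 0.669 (permutation p = 0.00422) in the 17, and the highest r was that of Zfp458 at 0.67 (permutation p = 0.00289). Without the 2 most distant libraries these were 0.552 and 0.384. The order of the members inside the lower set thus depended on where it ended.

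**Figure D3:**
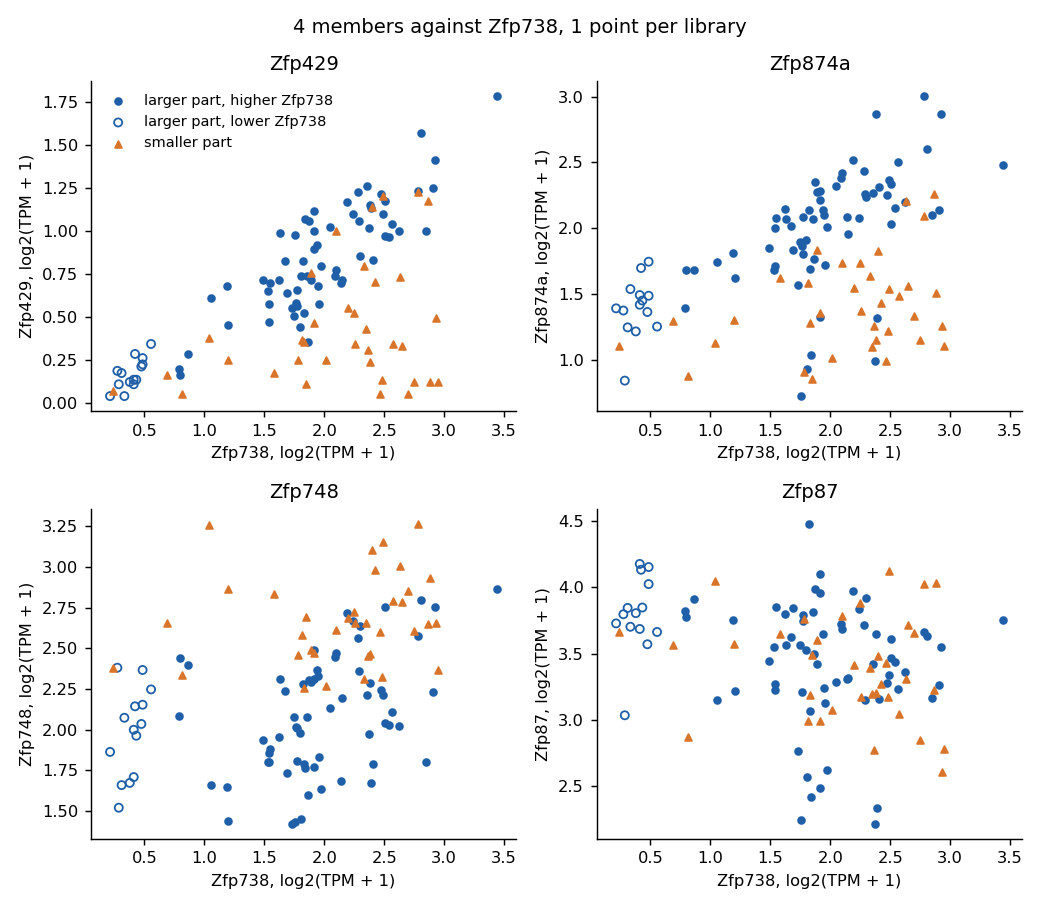
Zfp429, Zfp874a, Zfp748 and Zfp87 (vertical axes) against Zfp738 (horizontal axes), all in log2(TPM + 1), 1 point per library, with open blue circles for the 14 Zfp738-low and filled blue circles for the 65 Zfp738-high libraries of the larger part and orange triangles for the 36 of the smaller part. Zfp429 rises with Zfp738 across both blue sets, and the orange points are spread more widely.

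Zfp429 and Zfp874a kept these calls under each of the other scalings, filters and covariates tried in the larger part in which they were tested, whereas the call of Zfp87 depended on the scaling. With the 20 largest genes removed from the TPM total, Zfp87 fell with Zfp738 by a slope of -0.18 ± 0.03 (adjusted p = 1.64e-04), with median-of-ratios scaling by -0.26 ± 0.05 (adjusted p = 0.00123) and with 3 principal components as covariates by -0.19 ± 0.04 (adjusted p = 0.00103). Zfp748 lost its call with median-of-ratios scaling (adjusted p = 0.136) and Zfp708 did too (adjusted p = 0.0596), and both lost it with a pseudocount of 0.1 (adjusted p = 0.0829 and 0.0508).

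In the 36 libraries of the smaller part 0 of the 9 members were called by limma, beside 3 of all 23166 genes (0.013%), while 1212 genes had an unadjusted p under 0.05. Zfp874a had a slope of 0.19 ± 0.09 (r = 0.36, permutation p = 0.0307, rho = 0.26, adjusted p = 0.867) and Zfp429 of 0.17 ± 0.09 (r = 0.324, permutation p = 0.0541, rho = 0.168, adjusted p = 0.867). The slope of Zfp429 was lower by 0.28 than in the larger part (a difference of -0.28, unadjusted p = 0.00329, adjusted p = 0.462 over 23079 genes), and 0 of the 9 members and 0% of genes passed the limma test of this difference, where 1711 genes had an unadjusted p under 0.05. One model with a spread shared by both parts called Zfp429 (adjusted p = 0.0269), beside 0.624% of genes.

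Outside the members, the genes most like Zfp738 over the 79 libraries by Pearson r came largely from the same chromosome. The 5 highest were Gm26587, 9430065F17Rik, Gm6478, Gm28557 and 1810034E14Rik, all on chromosome 13 at distances from -5.65 to -0.03 Mb from the start of Zfp738. Within the 65 Zfp738-high libraries their r with Zfp738 was 0.881, 0.62, 0.607, 0.591 and 0.514. Most were low, with medians over all libraries of 0.62, 0.25, 0.14, 1.56 and 0.28 TPM, and Gm6478 was listed at 0 in 21 libraries. Gm28557 is the gene that the study names Zfp708, and Gm26587 and Gm28557 share exons with members, and so does 9430065F17Rik, which runs antisense over 576 exon bases of Zfp748.

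The 5 lowest were AK157302, Cntnap3, Gm5096, Gm9722 and Gm12856, of which the first 2 are on chromosome 13. Their medians over all libraries were 1.58, 0.02, 0.02, 1.13 and 0.16 TPM, and they were listed at 0 in 20, 32, 53, 2 and 25 libraries. The values of Cntnap3, Gm5096 and Gm12856 thus lie near the floor. In the smaller part r was 0.192 for Cntnap3 and 0.0412 for Gm5096, and it was negative for the rest. AK157302, a gene at chr13:21495223-21497146 (-46.19 Mb from Zfp738), had a slope on Zfp738 of -0.78 (adjusted p = 1.39e-09) in the larger part. Its r was -0.544 in the 65 Zfp738-high libraries and -0.743 in the smaller part (adjusted p = 0.002), so it was one of the 3 genes called there. The other 2 were Gm26587 (r = 0.873, adjusted p = 3.91e-07) and Adgra1 (r = -0.678, adjusted p = 0.0475), which was named after its value was seen.

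Calls with Zfp738 among genes that are not members made up a higher share near it, which was not tested. Among genes of chromosome 13 that start within 1 Mb of Zfp738, members left out, 12 of 31 were called with Zfp738 over the 79 libraries (38.7%), and 14 of 43 at 1 to 5 Mb (32.6%). At 5 to 10 Mb the share was 11.2%, at 10 to 20 Mb 11.6%, and farther away 14.3%, close to the 14.6% of genes on other chromosomes. An r over 0.5 in size in the 65 libraries was held by 4 of the 31 genes within 1 Mb (12.9%) and by 71 of the 22368 genes on other chromosomes (0.317%). Of those 4, Gm26587, 9430065F17Rik and Gm28557 share exons with members and were listed by the study at the SNP of Zfp738. With the genes that share exons with members left out, chosen after seeing the data, 8 of 26 within 1 Mb were called (30.8%) and 1 of 26 had such an r (3.85%), namely Gm10767. Genotypes were not analysed here.

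**Figure D4:**
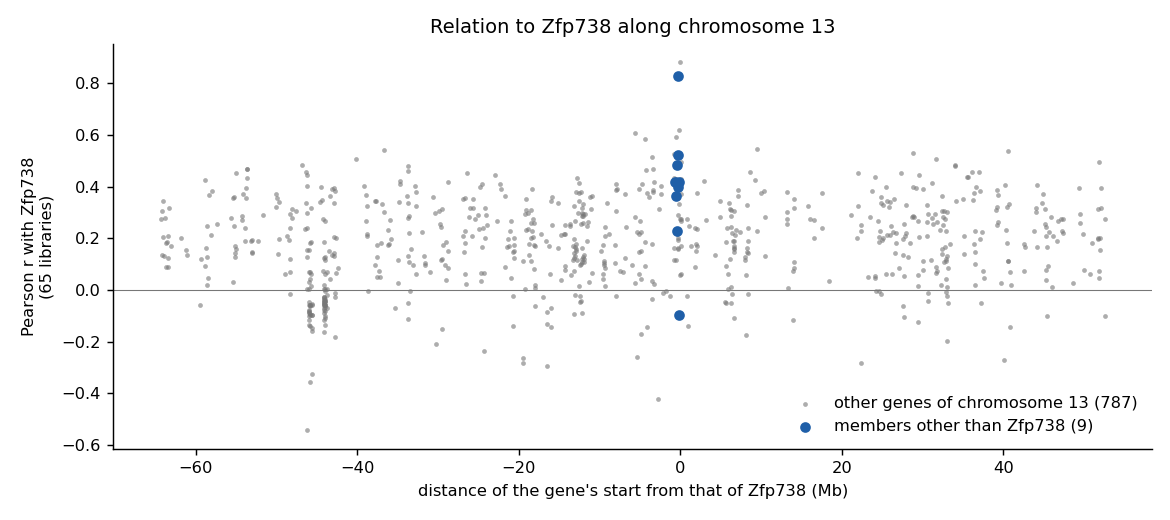
Pearson r with Zfp738 in the 65 Zfp738-high libraries (vertical axis) for genes of chromosome 13, by the distance of the gene's start from that of Zfp738 in Mb (horizontal axis), with the 9 other members in blue and the other genes in grey. The highest values lie at and around a distance of 0, where Zfp429 reaches 0.828 and Zfp87 lies under 0, and AK157302 is the lowest point on the left.

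Of 15 other Zfp genes on either side of and among the members 14 were tested, and Zfp493, Zfp58, Zfp273 and Zfp712, 4 of the 14, were called with Zfp738, all positive, beside 14.6% of all genes (14.5% with a positive slope). The 5 with the highest mean were Zfp65 at 4.59 ± 1.39 TPM, Zfp729b at 3.72 ± 1.08 TPM, Zfp58 at 2.56 ± 0.846 TPM, Zfp729a at 2.56 ± 0.758 TPM and Zfp874b at 2.17 ± 0.602 TPM (SD over all libraries). Of these 5 Zfp58 was called (adjusted p = 0.00553). Zfp729a and Zfp729b, which lie between Zfp748 and Zfp738, were not (adjusted p = 0.424 and 0.489). Zfp874b was not called either (adjusted p = 0.2).

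Pairs of members were compared with each member in turn as the covariate. In the larger part 43 of the 45 pairs had a positive slope, and 37 pairs were called whichever gene was the covariate, none of them negative. This was a property of most genes, since over the 10 members as covariates 61.1% of all tests were called, from 14.6% of genes with Zfp738 to 80.8% with Zfp595. With 3 principal components as covariates, an alternative chosen after seeing the data, 14 pairs were called both ways, 11 of them positive and 3 negative, beside 9.5% of all tests.

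Under these covariates Zfp429 rose with Zfp738 by a slope of 0.43 (adjusted p = 2.88e-26) and Zfp874a by 0.42 (adjusted p = 1.04e-16). The partial r was 0.782 for Zfp429 with Zfp874a and 0.664 for Zfp595 with Zfp748. For Zfp429 and Zfp874a few other genes were called, 0.786% with the one and 0.527% with the other as the covariate, so the trio Zfp738, Zfp429 and Zfp874a was called where 12.8% of genes or fewer were. The 3 negative calls all involved Zfp87, with a slope of -0.19 on Zfp738 (adjusted p = 0.00103) and a partial r of -0.482 with Zfp429 and of -0.359 with Zfp748. Zfp87 lies between Zfp874a and Zfp748 on the chromosome, and Zfp748 is called in the positive direction with both Zfp738 and Zfp429 under these covariates.

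In the smaller part 17 pairs were called both ways, none of them negative, beside 27.4% of all tests. Zfp429 with Zfp595 had r = 0.801 (adjusted p = 6.71e-07 with Zfp429 as the covariate), Zfp429 with Zfp874a r = 0.763 and Zfp455 with Zfp595 r = 0.761. Zfp459, which separated there, had a slope of 0.96 on Zfp429 (adjusted p = 2.55e-07) and of 0.93 on Zfp595 (adjusted p = 2.55e-07). With Zfp738 none of the members was called there, so the closest pairs of the smaller part did not include it. These counts rested in part on 4 libraries that stood apart there with little Chga and held 1.2 to 2.08 TPM of Zfp459. In the other 32, an alternative chosen after seeing the data, 9 pairs were called both ways, none of them negative, beside 11.7% of all tests. Zfp429 with Zfp595 had r = 0.747 there (adjusted p = 9.59e-05 with Zfp429 as the covariate) and Zfp429 with Zfp874a r = 0.769. Zfp459 had a slope of 0.67 on Zfp429 (adjusted p = 1.99e-06) and of 0.48 on Zfp595 (adjusted p = 0.0124).

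Mki67 encodes the Ki-67 protein of cycling cells, and the members' slopes on it address whether they followed proliferation. In the larger part, where Mki67 ranged from 0.39 to 25.7 TPM with a median of 4.23, 8 of the 10 members were called, all positive, beside 58.8% of all genes tested (56.1% with a positive slope). The highest r were those of Zfp748 (r = 0.678, rho = 0.695), Zfp455 (r = 0.652, rho = 0.664) and Zfp595 (r = 0.6, rho = 0.623), with a permutation p of 1e-05 for each. The other 5 called were Zfp87, Zfp459, Zfp458, Zfp708 and Zfp874a with r between 0.339 and 0.512, rho between 0.306 and 0.518 and permutation p of 0.00633 or less. After leaving out the 2 libraries with the most distant Mki67 values, the r of the 8 lay between 0.332 and 0.658. The libraries named W5000 to W5005 held 3.64 to 4.94 TPM of Zfp87, less than every other library of the larger part. They also held 0.65 to 1.5 TPM of Zfp874a and 0.39 to 0.93 TPM of Mki67. All of them are in the Zfp738-high set, and their part in the slopes on Mki67 and on Zfp738 was not tested. Zfp738 (r = -0.0295, adjusted p = 0.843) and Zfp429 (r = 0.0517, adjusted p = 0.719) were not called, Zfp429 being the member with the highest r with Zfp738 in the 65 libraries. The median r of the 10 members was 0.424 and that of all genes 0.303.

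Cell markers moved with Mki67 as well, and the calls depended on the covariates and the scaling. The leukocyte markers were called positive with Mki67 in 6 of 6 and the stroma markers in 4 of 6 genes, with summed levels from 24.9 to 530 TPM and from 153 to 3099 TPM in the larger part. With both sums as covariates 3 members were called beside 34.7% of genes, and without the 20 largest genes 4 beside 34.3%. With median-of-ratios scaling 3 were called beside 37.5% of genes, with Zfp748 and Zfp455 positive and Zfp738 negative (slope -0.23 ± 0.09, adjusted p = 0.0468), and with 3 principal components 0 beside 21.8%. Zfp748 and Zfp455 were called under each of these except the 3 principal components. The median r of all genes was 0.0432 without the 20 largest genes and -0.0584 with median-of-ratios scaling.

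In the 36 libraries of the smaller part, where Mki67 ranged from 20 to 144 TPM, 4 members were called and all were negative, beside 42.8% of genes (18.4% with a negative slope). Zfp429 had r = -0.682 and rho = -0.721 (permutation p = 2e-05 for each), Zfp874a r = -0.616 and rho = -0.629 (permutation p = 0.00011 and 6e-05), and Zfp595 r = -0.394 and rho = -0.455 (permutation p = 0.0177 and 0.00539). After removal of the 2 libraries most distant from the median of Mki67, these r were -0.652, -0.587 and -0.45. Zfp459, which separated in these libraries, had a slope of -0.32 ± 0.10 (adjusted p = 0.0104). In the 32 libraries without the 4 of little Chga, chosen after seeing the data, 3 members were called, all negative, beside 44.2% of genes (19.2% with a negative slope). They were Zfp429 (slope -0.34 ± 0.05, adjusted p = 7.3e-06), Zfp874a (-0.32 ± 0.08, adjusted p = 0.00171) and Zfp459 (-0.23 ± 0.05, adjusted p = 3.33e-04), while Zfp595 had a slope of -0.17 ± 0.08 (adjusted p = 0.0655). Zfp429, Zfp459 and Zfp874a lie next to each other on the chromosome, and each of them and Zfp595 also had its lower median in the smaller part. All 6 leukocyte and all 6 stroma markers were also called negative there, with summed levels from 8.38 to 461 TPM and from 1.73 to 1059 TPM, and their part in the members' slopes was not tested in these libraries.

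**Figure D5:**
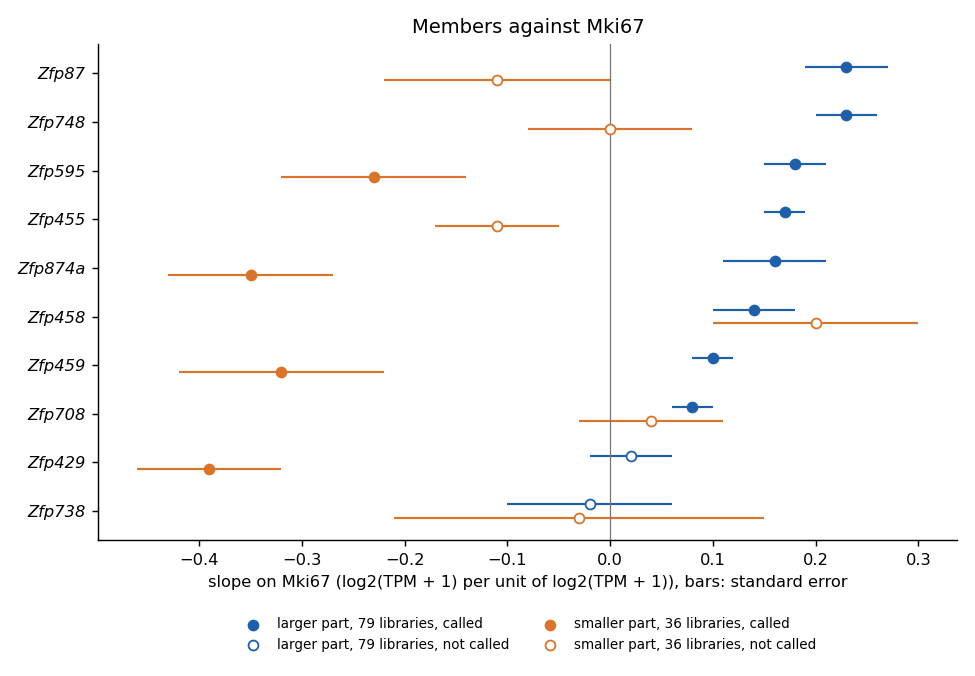
Slope of each member on Mki67, in log2(TPM + 1) per unit of log2(TPM + 1) (horizontal axis), in the larger part in blue and the smaller part in orange, with bars for the standard error and filled points for slopes called by limma at an adjusted p under 0.05. The 8 called blue points lie to the right of 0 and the 4 called orange points, for Zfp429, Zfp874a, Zfp459 and Zfp595, to the left.

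The difference in slope on Mki67 between the parts passed its test for 7 of the 10 members, beside 49% of all genes. The slope was lower in the smaller part by 0.50 for Zfp874a (a difference of -0.50, adjusted p = 2.58e-05), and the differences were -0.42 for Zfp459, -0.41 for Zfp429 and -0.41 for Zfp595. For Zfp738, Zfp708 and Zfp458 the difference was not called (adjusted p = 0.986, 0.711 and 0.644).

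Chga, which encodes chromogranin A of neuroendocrine cells, was called with fewer members once libraries that stood apart in Chga were left out. In the larger part it was at 0.06 to 4.84 TPM and fell into 72 lower and 7 higher libraries. Over all 79, limma called 1 of 10 members, Zfp459 (slope 0.22 ± 0.05, adjusted p = 0.00108), beside 19.1% of genes (19% with a positive slope). Within the 72 lower libraries 0 of 10 were called beside 1.16% of genes, with 2845 genes at an unadjusted p under 0.05, and Zfp459 had a slope of 0.20 ± 0.11, close to that over the 79 with a wider error, r = 0.211 (permutation p = 0.078) and rho = 0.163 (permutation p = 0.172). The call was thus lost without the 7 libraries with the most Chga.

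In the smaller part 4 members were called with a negative slope, Zfp459 (-0.15 ± 0.03), Zfp595 (-0.11 ± 0.03), Zfp429 (-0.08 ± 0.03) and Zfp748 (-0.07 ± 0.02), beside 27.9% of genes (19.2% with a negative slope). There 4 libraries with 0.15 to 2.55 TPM of Chga stood apart from 32 with 21.1 to 479 TPM. In the 32 libraries none of these 4 was called and 1 other member was, Zfp87, with a positive slope of 0.21 ± 0.05 (r = 0.615, permutation p = 0.00024, rho = 0.529, permutation p = 0.00245, adjusted p = 0.0153), beside 4.95% of genes (4.82% with a positive slope). Its r was 0.48 after leaving out the 2 most distant libraries. Zfp459 had r = 0.236 (permutation p = 0.191) in the 32. Zfp738 was not called with Chga in any of these sets of libraries.

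The genes with which KRAB zinc finger proteins work were measured as well. All 14 genes of the co-repressor list, among them Trim28, Setdb1, the HP1 genes Cbx1, Cbx3 and Cbx5 and the methyltransferase gene Dnmt1, were called positive with Mki67 in the larger part, beside 56.1% of all genes with a positive slope. In the smaller part 9 of 14 were called, all positive, beside 5675 of 23166 genes with a positive slope (42.8% of genes in either direction). Trim28 measured 74.6 ± 39 TPM (SD over all libraries), above every member in mean. With Zfp738 1 of the 14 was called, beside 14.6% of all genes, namely Atf7ip, a partner of Setdb1 (adjusted p = 0.0334). None of the 6 proliferation, 6 neuroendocrine, 6 luminal, 3 basal, 6 stroma, 6 leukocyte, 3 endothelial and 4 seminal vesicle markers was called with Zfp738 in the larger part, beside 14.6% of all genes. None was called in the smaller part either. Only 0.013% of all genes were called there, so the absence of calls says nothing about these markers.

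None of 3 liver genes known as targets of the Rsl loci was called with Zfp738 in the larger part, beside 14.6% of all genes. Their relation to Rsl1 and to Zfp429 (Rsl2) was not examined here. C4a, a sex-limited complement gene, was at a median of 1.15 TPM (adjusted p = 0.136). Cyp2d9 and Mup20 were listed at 0 in 93 and 84 libraries, which left few values to relate to Zfp738.

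Some of these levels rest on sequence shared with other genes. Of the stretches as long as a trimmed read in the annotated transcripts of Zfp708, 94% are also in Gm28557, which had a median of 1.56 TPM, and the value of Zfp708 is uncertain for this reason. For Zfp738 11.6% of such stretches recur elsewhere, 5.77% in Gm26587. The share was 9.84% for Zfp459, 6.65% for Zfp748, 6.47% for Zfp87, 4.58% for Zfp429, and 2.11% or less for the other 4. Exons of Zfp429 (49 bases) and Zfp459 (457 bases) overlap the antisense gene Gm48900, which was not analysed here, and exons of Zfp87 (298 bases) and Zfp595 (259 bases) overlap same-strand genes of low level. Zfp429 shared most with Rsl1 (2.72%) and Zfp738, after Gm26587, with Zfp729a (2.57%).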

How the data were processed

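RNA from the prostates was sequenced after rRNA depletion with a kit that does not mark strand. Per the labels the submitters' processing notes name CASAVA 1.8.2, Bowtie2 2.2.5 and RSEM 1.2.20 on GRCm38, and the authors used Seqnature to build the allele-specific transcripts to which trimmed reads were mapped. The annotation release is not given in the sources used here. The authors deposited TPM, scaled to the same total within each library, so depth is unknown and no interval from counting is given. Because TPM is a share, a few abundant genes can move every other value.

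Gene positions came from GENCODE M21 (98.8% of 45699 genes matched). Levels were analysed as log2(TPM + 1), on which scale changes of low genes are understated. Genes whose mean reached 0.1 TPM were tested with limma 3.58.1 in R 4.3.3 (moderated with a trend), with Benjamini-Hochberg adjustment over all genes tested and a threshold of 0.05. The labels name no repeat library of a mouse, but the study's methods name fewer mice than there are libraries, so some libraries may share a mouse and p-values over libraries may be too small. Parts of libraries were called with mixtures of normal distributions. Differences in slope between parts were tested from separate limma fits, in which each part kept its own spread. The single model with a shared spread, which was planned first, was kept as an alternative. The report gives both for Zfp738. Correlations used 100000 permutations, two-sided (Python 3). Sequences came from RefSeq (GRCm38.p6), and the lengths of 13 and 20 letters for shared strings were chosen after the sequences were seen.

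The members and gene lists were chosen with earlier results of these data known. Named were the members, Chga, Mki67, the 5 genes highest and 5 lowest in r with Zfp738 in the larger part, the 5 highest other Zfp genes nearby, genes overlapping members, a KRAB co-repressor list and 3 liver targets of the Rsl genes. Alternatives were another pseudocount, filters, scalings, ranks, covariates and sets of libraries. Genotype, age and tumor burden were not used here.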

Additional observations from a re-analysis of the deposited data

Results flagged for a closer look

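For 3 members the slope on Chga differed between the parts of libraries by a test of the difference itself, with p-values from limma adjusted over 23079 genes. The difference, smaller minus larger part, was -0.37 for Zfp459 (adjusted p = 1.01e-06), -0.28 for Zfp595 (adjusted p = 0.0082) and -0.26 for Zfp748 (adjusted p = 0.0338), beside 21.8% of all genes. The 4 libraries of the smaller part with 0.15 to 2.55 TPM of Chga move with this result, since none of the 3 was called in the other 32.

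For 7 members the slope on Mki67 differed in the same way, beside 49% of all genes. The difference was -0.50 for Zfp874a (adjusted p = 2.58e-05), -0.42 for Zfp459 (adjusted p = 0.00103), -0.41 for Zfp429 (adjusted p = 8.2e-05), -0.41 for Zfp595 (adjusted p = 0.000734), -0.34 for Zfp87 (adjusted p = 0.0132), -0.27 for Zfp455 (adjusted p = 0.00122) and -0.23 for Zfp748 (adjusted p = 0.0212). The parts were defined from these data, and leukocyte and stroma markers turned from positive to negative slopes on Mki67 with them. Their part in the result was not tested.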

How the results depend on the processing

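No paired analysis was possible because the labels give 1 group. Of 9 members, 5 were called with Zfp738 as reported, 3 with a pseudocount of 0.1, 0 in the smaller part and 8 with Chga and Mki67 as covariates. A filter at 1 TPM left 5 of the 9 to be tested, and 3 of those were called. Genes called with Zfp738 (3386) numbered 1428 (pseudocount 0.1), 1461 (1 TPM filter), 1617 (median-of-ratios), 3 (smaller part), 2102 (all libraries, part as a term), 5543 (65 libraries) and 12868 (62 libraries, with 8 members). The 65 and 62 were chosen after seeing the data. Zfp708 changed sign in the smaller part, but its relation there did not pass (r = -0.0252, limma adjusted p = 0.988).

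Of 10 members, 1 was called with Chga, and 0 with ranks, 3 components or in the 72 libraries, 4 in the smaller part and 2 over all libraries. The 1 TPM filter left 6 members to be tested, of which 0 were called, and removed Zfp459, the member called as reported. Genes called numbered 2758 (1 TPM filter), 2937 (ranks), 1286 (3 components), 269 (72 libraries), 7824 (all libraries) and 1147 (32 libraries). The 72 and 32 were chosen after seeing the data. In the smaller part r was -0.401 for Zfp429, -0.651 for Zfp459, -0.585 for Zfp595 and -0.451 for Zfp748, against positive values in the larger, and over all libraries -0.389 for Zfp459 and -0.278 for Zfp595.

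With Mki67 (8 members, 13624 genes), 5 of the 6 members tested were called with the 1 TPM filter. With median-of-ratios 3 (8692 genes) were called, without the 20 largest genes 4 (7934 genes) and with 3 components 0 (5055 genes). In the smaller part 4 were called, and with stroma and leukocyte sums, chosen after seeing the data, 3 (8032 genes). In the 32 libraries, chosen likewise, 3 members were called and r was -0.765 for Zfp429, -0.246 for Zfp455, -0.655 for Zfp459, -0.386 for Zfp595, -0.135 for Zfp87 and -0.611 for Zfp874a. In the smaller part r turned to -0.682 for Zfp429, -0.281 for Zfp455, -0.471 for Zfp459, -0.394 for Zfp595, -0.178 for Zfp87 and -0.616 for Zfp874a. With 3 components it turned to -0.0111 for Zfp595, -0.142 for Zfp748, -0.0556 for Zfp87 and -0.129 for Zfp874a, and with median-of-ratios to -0.016 for Zfp458. The causes were not tested.

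The lower Zfp738 set held 5 libraries in the smaller part. Without 1 of 2 libraries with near-identical names the members called were 5 with Zfp738, 1 with Chga and 8 with Mki67. Members detected numbered 10 at 0.1 TPM and 1 at 5 TPM. The slope on Zfp738 differed for 1 member under a shared spread (0 as reported). Of the members' own values under the alternatives, 8 lost a call, 14 gained one and 1 reversed for Zfp738, against 4, 1 and 6 for Chga and 26, 1 and 17 for Mki67. A change of sign was counted as reversed only where a call was held in either fit. The size of r was not considered, so some of those counted had a very small r and no call after the change. The remaining 99 for Zfp738 and 92 for Mki67 kept their side of the threshold, and some uncalled values among them changed sign. TPM keeps no read depth, so counting error of the members under 1 TPM is unknown.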
